A study of Mus musculus with 14 samples.

Results

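The intracellular arm of the Wnt pathway was followed through 10 genes, chosen by name: the TCF/LEF factors Lef1, Tcf7, Tcf7l1 and Tcf7l2, beta-catenin (Ctnnb1), its inhibitor Ctnnbip1 and the cytoplasmic feedback genes Cxxc4, Axin2, Nkd1 and Nkd2. Of these, 4 genes (Lef1, Ctnnbip1, Cxxc4 and Nkd2) were paired with 9 of the 9954 regions that the authors called as differing in accessibility, and 6 genes were paired with none. The lists of called regions served to choose the genes for study, so the fold changes and adjusted p-values below are descriptions of the authors' calls, and none of them is a new test. A gene written as higher or lower had a region of higher or lower accessibility, and expression was not analysed here.

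Accessibility had been measured by ATAC-seq, in which the transposase Tn5 inserts adapters into open DNA, on 500 sorted cells per sample followed by 14 cycles of PCR. The cells were erythro-myeloid progenitors, the first yolk sac cells able to give both red and myeloid cells, from C57BL/6 mouse embryos at E10.5. Every embryo was labelled Ezh2fl/fl, so all groups share the floxed gene for Ezh2, the histone H3 lysine 27 methyltransferase of Polycomb repressive complex PRC2. The 5 Tie2 KO samples carried the Cre transgene labelled Tie2-CreTg/+, and the 3 Vav KO samples carried Vav-CreTg/+. The 3 Tie2 WT samples were labelled Tie2-Cre+/+ and wild type, and the 3 Vav WT samples were labelled in the same way for Vav-Cre. Tie2-Cre acts in endothelium as well as in the blood cells that arise from it, and Vav-Cre acts in blood cells. The comparisons were Tie2 KO against Tie2 WT, Vav KO against Tie2 WT and Tie2 KO against Vav KO. Vav WT entered none of the lists used here, so in the second comparison Cre line and genotype cannot be told apart. No list holds a value per sample, so depth, replicate spread and the level of any single embryo are unknown, and the labels do not say which samples shared a litter. Ezh2 itself was paired with 0 called regions, so the lists give no check of its deletion. In samples of sorted cells a change in the mix of cells and a change of chromatin within each cell cannot be told apart.

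In canonical Wnt signalling a destruction complex built on Axin marks beta-catenin for breakdown until a Wnt ligand, acting through Dishevelled, stops it. Beta-catenin then enters the nucleus and binds TCF/LEF proteins, which sit on their target genes and repress them in its absence. The pathway limits itself at several steps. Axin2 is a target that rebuilds the destruction complex, Nkd1 and Nkd2 are Naked cuticle homologues that bind Dishevelled, Cxxc4 (also called Idax) binds Dishevelled too, and Ctnnbip1 (also called ICAT) keeps beta-catenin from TCF/LEF. In the developing blood system the pathway is known for its dose-dependent role in the emergence and expansion of progenitors.

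The promoters of the 4 genes with called regions are shown because the calls lay on or beside them. Each line gives the 250 bases before the RefSeq gene start in build GRCm38.p6, from 5′ to 3′ on the gene's strand, with each CG dinucleotide in capitals. CG dinucleotides are the sites of DNA methylation and, unmethylated, are bound by CXXC-domain proteins.
Lef1: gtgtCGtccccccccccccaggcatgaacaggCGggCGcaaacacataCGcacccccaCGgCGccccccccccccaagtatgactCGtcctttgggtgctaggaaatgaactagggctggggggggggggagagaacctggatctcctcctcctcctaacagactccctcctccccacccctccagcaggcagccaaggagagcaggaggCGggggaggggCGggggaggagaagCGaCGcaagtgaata
Ctnnbip1: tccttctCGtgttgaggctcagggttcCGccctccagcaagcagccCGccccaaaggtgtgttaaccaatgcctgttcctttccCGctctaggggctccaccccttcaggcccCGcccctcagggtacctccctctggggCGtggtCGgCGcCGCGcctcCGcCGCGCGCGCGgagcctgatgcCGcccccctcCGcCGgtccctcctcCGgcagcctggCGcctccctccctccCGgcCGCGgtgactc
Cxxc4: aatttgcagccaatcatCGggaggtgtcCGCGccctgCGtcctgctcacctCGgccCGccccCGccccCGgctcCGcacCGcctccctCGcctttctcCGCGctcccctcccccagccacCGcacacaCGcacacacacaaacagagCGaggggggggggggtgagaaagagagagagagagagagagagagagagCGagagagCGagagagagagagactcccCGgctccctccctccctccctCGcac
Nkd2: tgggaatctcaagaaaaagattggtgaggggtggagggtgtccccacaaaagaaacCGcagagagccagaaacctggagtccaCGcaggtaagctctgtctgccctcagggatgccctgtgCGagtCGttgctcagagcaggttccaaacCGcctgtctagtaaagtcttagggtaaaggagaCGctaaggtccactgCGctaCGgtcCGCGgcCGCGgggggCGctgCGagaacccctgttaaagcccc
The stretches lie at chr3:131110047-131110296 (Lef1, + strand), chr4:149517991-149518240 (Ctnnbip1, + strand), chr3:134236245-134236494 (Cxxc4, + strand) and chr13:73847632-73847881 (Nkd2, - strand). They hold 11 CG dinucleotides at Lef1, 24 at Ctnnbip1, 20 at Cxxc4 and 14 at Nkd2. In the Lef1 and Cxxc4 stretches the longest run of a single base is 12. All 250 Lef1 bases lay inside the called regions over its start, and 193 of the 250 Cxxc4 bases lay inside its region. At Nkd2 the 80 bases farthest from the start lay inside the called regions. The Ctnnbip1 regions ended 90 bp before its stretch began.

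Lef1 encodes a TCF/LEF factor of early lymphocytes and many embryonic tissues, and it had the most called regions, 4, all of them higher in Tie2 KO. Against Tie2 WT, the authors' deposited table gives a narrow region on chromosome 3 from 131107902 to 131108900, which is 999 bp wide and lies 1396 bp upstream of the gene start. Its log2 fold change was 1.64 in the authors' deposited table, a 3.12-fold higher accessibility in Tie2 KO, with an adjusted p of 0.000141. It ranked 226 by fold change among the 2959 higher regions of that comparison.

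A second, wide region covered the Lef1 start, from 131109102 to 131114500. At 5399 bp it ranked 24 by width among the same 2959 regions, whose median width was 1599 bp, and it reached 4203 bp into the gene. The authors' deposited table gives it a log2 fold change of 0.97 and an adjusted p of 5.88e-07. The upstream region had the larger fold change and the wide region over the start had the smaller adjusted p.

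Set against Vav KO, the same Tie2 KO samples were again higher at Lef1. The upstream region, from 131107702 to 131108900, had a log2 fold change of 2.2, a 4.59-fold difference (adjusted p 1.11e-05 in the authors' deposited table). It ranked 158 by fold change among 2873 higher regions and was the largest of the called changes at the 10 genes. The region over the start, from 131109502 to 131110900, had a log2 fold change of 1.04 (adjusted p 0.000738 in the authors' deposited table). In this comparison it was 1399 bp wide and reached 603 bp into the gene. Lef1 had no region in Vav KO against Tie2 WT. Since the comparisons share their Tie2 KO samples, the second set of Lef1 values is no independent repeat of the first.

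The other TCF/LEF genes, Tcf7 (the T cell factor TCF-1), Tcf7l1 (TCF-3, mostly a repressor) and Tcf7l2 (TCF-4, the main factor of gut epithelium), were paired with no region in any of the 6 lists. The lists hold no value for a gene that was not called, so how close these genes came to the authors' threshold is unknown. Across all lists the called regions had absolute log2 fold changes from 0.58 upwards and adjusted p-values up to 0.0479. The 9 regions at the 4 listed genes had absolute log2 fold changes of 0.97 to 2.2 and adjusted p-values of 5.88e-07 to 0.00323 in the authors' deposited table. Within their lists they ranked by adjusted p from 42 of 619 (Ctnnbip1, Tie2 KO against Tie2 WT) to 2838 of 2959 (Cxxc4). Nkd2 in Vav KO against Tie2 WT ranked 1237 of 1313, and the Lef1 start region against Vav KO ranked 2489 of 2873, so some were among the weaker calls.

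**Figure D1:**
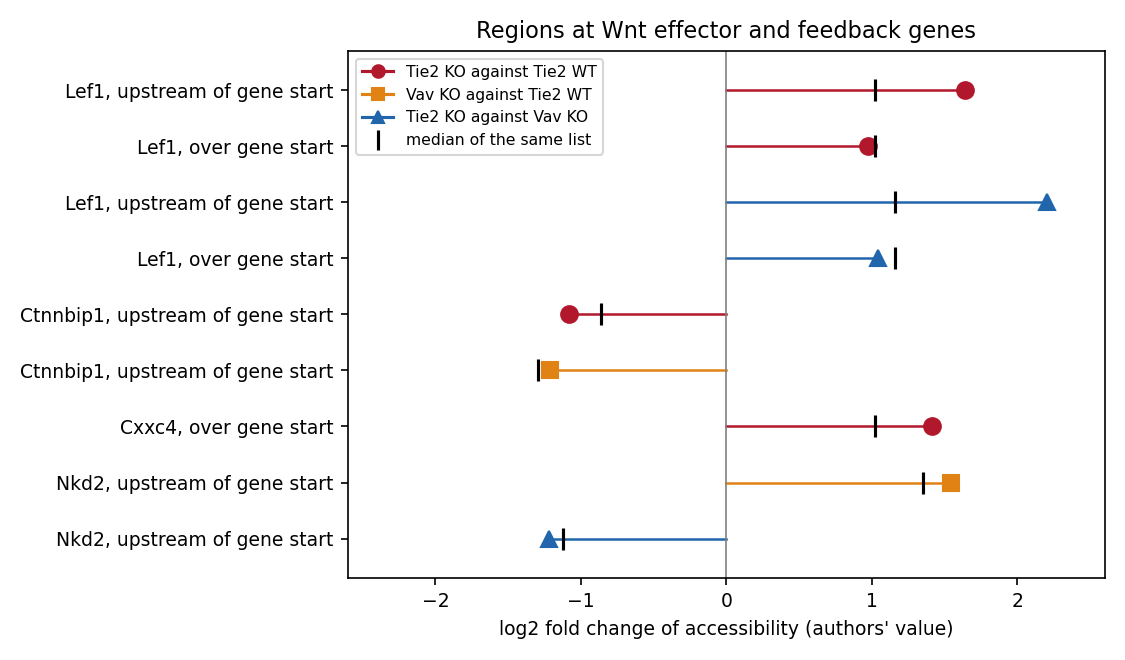
Log2 fold change of accessibility (x axis, the authors' deposited values) for the 9 called regions at Lef1, Ctnnbip1, Cxxc4 and Nkd2 (y axis), with colour and symbol for the comparison and a black tick at the median of the list each region belongs to. The upstream Lef1 regions reach 1.64 and 2.2, past their list medians of 1.02 and 1.16, while the Lef1 regions over the start, at 0.97 and 1.04, fall just short of them.

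Ctnnb1, which encodes beta-catenin itself, was paired with no region. One called region nevertheless lay inside its annotated span, since a region was paired only with genes whose start it covered or preceded by less than 5 kb. The region, on chromosome 9 from 120935302 to 120936500, began 1902 bp after the annotated Ctnnb1 start and was paired with the noncoding gene 4930593C16Rik, which starts upstream of Ctnnb1 and runs the other way. It was lower in Vav KO than in Tie2 WT, with a log2 fold change of -1.01 (adjusted p 0.00924 in the authors' deposited table).

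Ctnnbip1 encodes the small protein that occupies the TCF-binding face of beta-catenin, and accessibility upstream of the gene was lower in both knockouts than in Tie2 WT. In Tie2 KO the region ran from 149516802 to 149517900 on chromosome 4 and had a log2 fold change of -1.08, a 2.11-fold lower accessibility (adjusted p 5.23e-06 in the authors' deposited table). That adjusted p ranked 42 among the 619 lower regions of the comparison. In Vav KO the region ran from 149516902 to 149517900 and had a log2 fold change of -1.21, a 2.31-fold lower accessibility (adjusted p 0.00122 in the authors' deposited table). Among the 630 lower regions of that comparison it ranked 524 by adjusted p and 358 by fold change. The median log2 fold change of that list was -1.295, so this was one of its weaker calls. Both regions ended 340 bp before the gene start, and neither was paired with another gene. Ctnnbip1 had no region in the comparison of Tie2 KO with Vav KO. The same Tie2 WT samples stand behind both values, so their like size is no independent repeat.

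Cxxc4 was more accessible in Tie2 KO than in Tie2 WT, in 1 region on chromosome 3 from 134236302 to 134237400 that covered the gene start and reached 905 bp into the gene. Its log2 fold change was 1.41, a 2.66-fold higher accessibility (adjusted p 0.00236 in the authors' deposited table). By fold change it ranked 509 among 2959 higher regions, and by adjusted p it ranked 2838, so it stood high in that list by size and low by adjusted p. Another higher region lay inside the Cxxc4 span, from 134239502 to 134240700, and was paired with the microRNA gene Mir1895, whose start it covered. Its log2 fold change was 0.70 (adjusted p 2.2e-05 in the authors' deposited table). Cxxc4 was in neither list of the other comparisons.

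Nkd2, a Dishevelled-binding antagonist, was called in both comparisons that include Vav KO, with more accessibility in Vav KO each time. In Vav KO against Tie2 WT the region on chromosome 13 from 73847802 to 73849000 had a log2 fold change of 1.54, a 2.91-fold higher accessibility (adjusted p 0.00323 in the authors' deposited table). In Tie2 KO against Vav KO the region from 73847802 to 73848900 had a log2 fold change of -1.22, a 2.33-fold lower accessibility in Tie2 KO (adjusted p 0.000481 in the authors' deposited table). Both ended 170 bp upstream of the gene start. These comparisons share the Vav KO samples, so a high value in those 3 samples enters both. Nkd2 had no region in Tie2 KO against Tie2 WT.

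Nkd1, the partner of Nkd2 in sequence and role, and Axin2, the most widely used readout of pathway activity, were paired with no region. No called region of any gene lay within 50 kb of the annotated spans of Axin2, Tcf7, Lef1 (other than its own) or Nkd2 (other than its own). Inside the Tcf7l1 span, close to its 3′ end on chromosome 6, regions from 72626502 to 72627700 and from 72627902 to 72629600 were lower in Tie2 KO than in Vav KO. They were paired with the noncoding gene Gm15401, with log2 fold changes of -1.52 and -0.85 and adjusted p-values of 1.3e-05 and 0.000264 in the authors' deposited table.

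**Figure D2:**
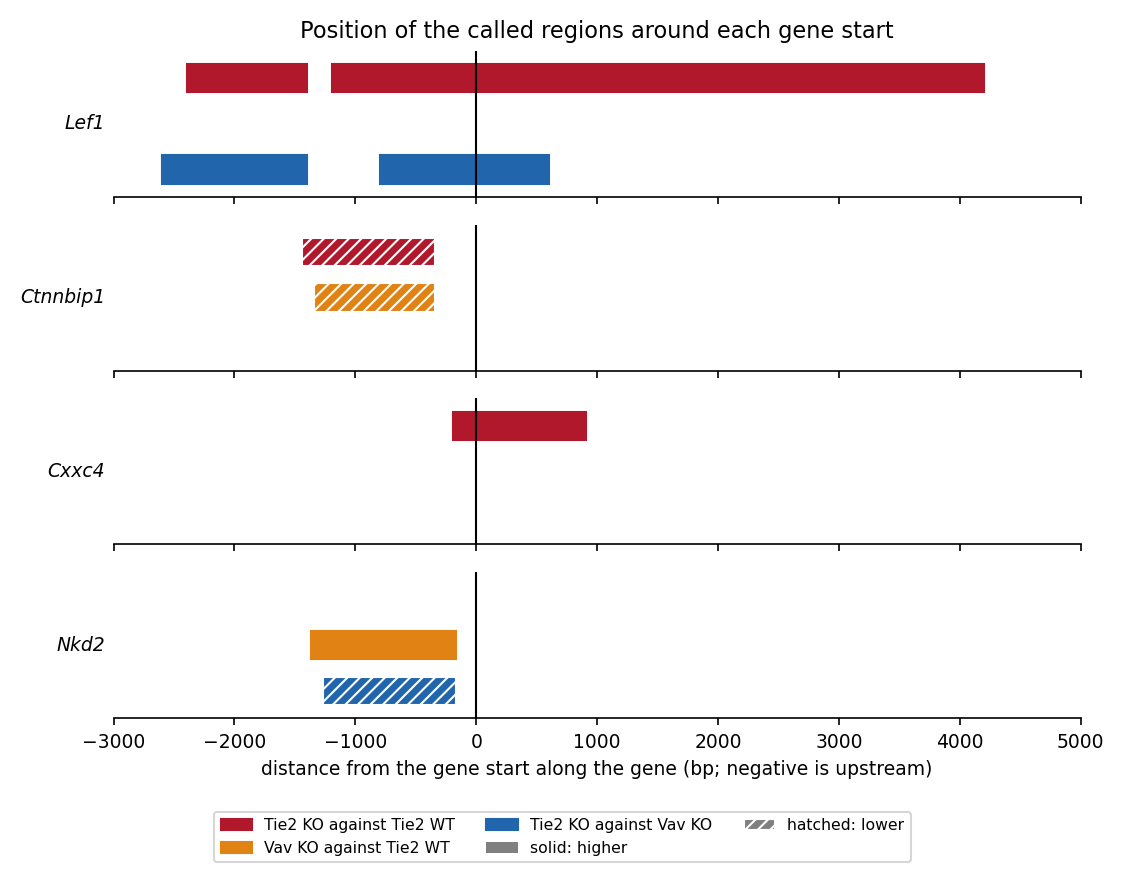
Position of each called region along its gene (x axis, bp from the gene start, negative upstream), 1 panel per gene, with colour for the comparison, solid bars for higher and hatched bars for lower regions. Lef1 has a pair of regions in each comparison with Tie2 KO on top, Ctnnbip1 and Nkd2 regions end upstream of the start, and the Cxxc4 region covers it.

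Counted by gene, 2 of 10 (Lef1 and Cxxc4) were near a higher region in Tie2 KO against Tie2 WT, where 11.5% of all protein-coding genes were, and 1 of 10 (Ctnnbip1) was near a lower one, against 2.51%. In Vav KO against Tie2 WT, 1 gene (Nkd2) was near a higher region, against 5.29% of protein-coding genes, and 1 (Ctnnbip1) near a lower one, against 2.59%. In Tie2 KO against Vav KO, 1 gene (Lef1) was near a higher region, against 11.1%, and 1 (Nkd2) near a lower one, against 6.35%. With 10 genes, 1 gene is 10% of them, and since the lists themselves chose these genes nothing is read from the counts. By position, 3 of the 9 regions covered a gene start and 6 lay upstream, and all 3 that covered one were higher in Tie2 KO. Over whole lists, 55.6% of the higher regions of Tie2 KO against Tie2 WT covered a start, and 43.8% against Vav KO. In the remaining lists the share was 12.1% to 18.4%. A region over the start is thus common in the lists of regions higher in Tie2 KO, and not particular to these genes. Among the 9 regions, 4 pairs overlapped across 2 comparisons, so the Lef1 start counts 2 times among the 3. None of the 9 was shared with another gene.

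The sequence around the gene starts was not used to choose the genes. In promoter windows of 300 bases, from 250 before to 50 after the most 5′ RefSeq start, the median protein-coding gene had 13 CG dinucleotides over 17492 genes. The listed genes had 18 (Lef1), 26 (Cxxc4), 26 (Nkd2) and 30 (Ctnnbip1). The unlisted genes ranged from 6 at Nkd1 to 46 at Ctnnb1, with a median of 34. Nkd1 lay below every listed gene, and the other unlisted genes, from 31 at Axin2 upwards, lay above every listed gene. This difference was not tested. Of the 10 genes, 9 had more CG dinucleotides than the median gene, Nkd1 being the exception. GC content was 67.3% at Lef1, 73.3% at Ctnnbip1, 68.0% at Cxxc4 and 63.0% at Nkd2, against a median of 56.3%. The TCF/LEF motif CTTTGAT or CTTTGAA, searched on both strands, was in none of the 10 windows, and 7.83% of all protein-coding windows held it. With the shorter core CTTTGA, which lies within both motifs, the count was again 0 of 10, against 14.9% of windows. Of all 17 windows that the table gives for the 10 genes, 1 held the core, at an internal start of Lef1. No match says only that these letters are absent from these windows.

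**Figure D3:**
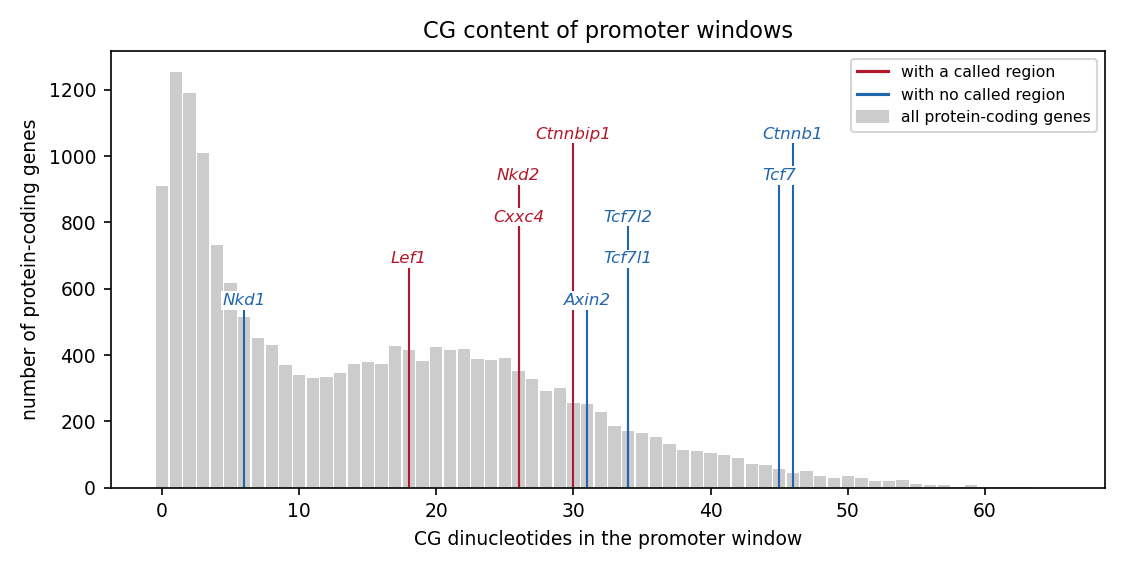
Number of protein-coding genes (y axis) by CG dinucleotides in the 300-base promoter window (x axis), with lines for the 4 genes that had a called region (red) and the 6 that had none (blue). The genes with a called region lie between 18 and 30, with Nkd1 at 6 below them and the other genes without one at 31 to 46 above them.

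Around these 10 genes, 93 further genes of the intracellular pathway were looked up by role, of which 38 were near a called region in at least 1 comparison. The share of all protein-coding genes near a region in at least 1 comparison was not computed, so nothing is read from that total. The counts were highest for genes known as beta-catenin targets. The 22 targets leave out the 10 genes above, so Axin2, a target paired with no called region, is not counted among them. In Tie2 KO against Tie2 WT, 14 of 22 targets were near a higher region (63.6%, against 11.5% of protein-coding genes) and 0 near a lower one. The protein-coding share near a lower region was 2.51% there. In Tie2 KO against Vav KO the target counts were 14 and 0, where the protein-coding background was 11.1% higher and 6.35% lower. In Vav KO against Tie2 WT they were 1 and 2, or 4.55% and 9.09%, beside a background of 5.29% and 2.59%. Over the other 71 pathway genes, 8 had a higher and 1 had a lower region nearby in Tie2 KO against Tie2 WT, or 11.3% and 1.41%. Those shares were 8.45% and 5.63% in Vav KO against Tie2 WT and 9.86% and 8.45% in Tie2 KO against Vav KO. The background values given for the targets hold for these 71 genes too. Most of the called targets are themselves regulators of embryonic patterning, so the role list overlaps with developmental transcription factors, and it was drawn up with earlier results of these data known.

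**Figure D4:**
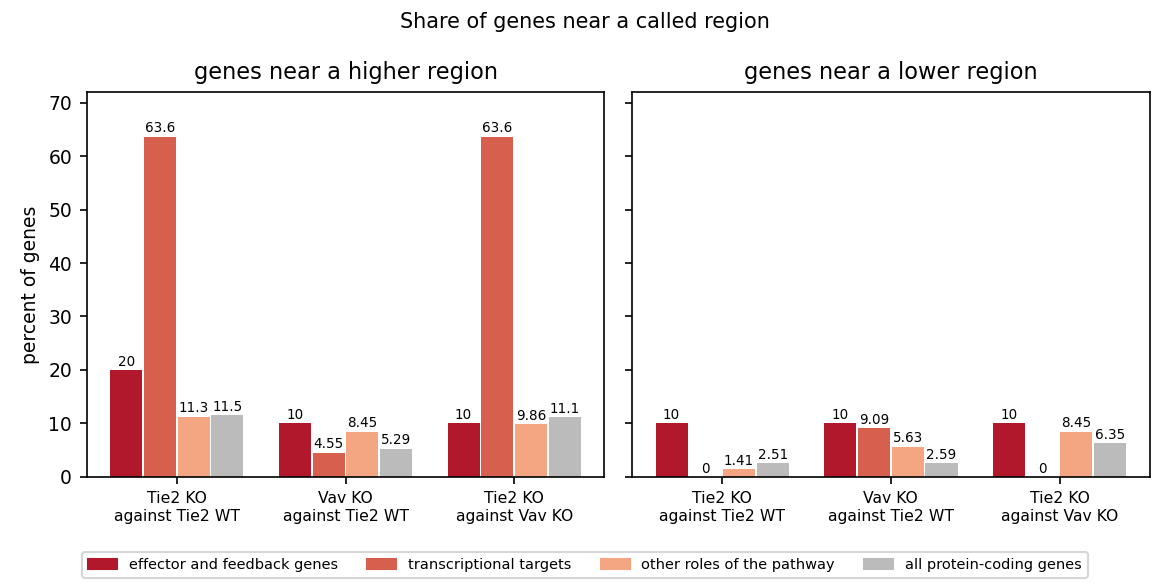
Percent of genes (y axis) near a higher (left panel) or a lower region (right panel) in each comparison (x axis), for the 10 effector and feedback genes, 22 transcriptional targets, 71 genes of other pathway roles and all protein-coding genes. The targets reach 63.6% near higher regions in both comparisons with Tie2 KO on top, and every other bar lies at or below 20%.

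Among the targets, log2 fold changes of the 20 higher regions in Tie2 KO against Tie2 WT in the authors' deposited table had a median of 0.96. Among them were 1.90 at the growth factor gene Fgf20, 1.60 at Msx1, 1.42 at Msx2 and 1.3 at T (Brachyury, the regulator of early mesoderm), in the authors' deposited table. Cdx1, Cdx2 and Cdx4, homeobox genes known for their part in embryonic blood formation and in Hox control, had 0.79, 0.75 and 1.28 in the authors' deposited table. Sp5 and Sp8, zinc finger factors that act with TCF/LEF on Wnt targets, reached 1.11 and 0.82 in the authors' deposited table. Further values in the authors' deposited table were 1.11 at Tnfrsf19, 0.92 at Ccnd1, which encodes cyclin D1, 0.76 at Id2 and 0.72 at Ascl2. Set against Vav KO, Tie2 KO had 2.11 at Cdx2, 1.96 at Sp8, 1.42 at T and 1.35 at Msx2 in the authors' deposited table, with 1.24 at Fgf20, 1.23 at Ascl2 and 1.10 at Msx1. For some genes these values and those against Tie2 WT come from different places. At Cdx2 the 0.75 region covered the start and the 2.11 region lay 2552 bp upstream. At T the 1.3 region covered the start and the 1.42 region lay 3822 bp upstream. At Msx1 the 1.60 region lay 4816 bp upstream and the 1.10 region covered the start. At Sp8 the 0.82 region lay 2128 bp and the 1.96 region 728 bp upstream. Also in that comparison, the authors' deposited table gives 1.07 at Cdx1, 1.03 at Sp5, 0.80 at Id2 and 0.70 at Ccnd1. Apcdd1 and Fosl1 were called higher in Tie2 KO than in Vav KO, at 1.21 and 0.97 in the authors' deposited table. In Vav KO against Tie2 WT, Ccnd1 was higher at 0.62, and Trib2 and Ppard were lower at -1.94 and -1.13, in the authors' deposited table.

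Upstream in the cytoplasm, 2 of 22 destruction complex genes, 2 of 12 transducers and 1 of 7 Dishevelled antagonists were near a higher region in Tie2 KO against Tie2 WT, and 0 near a lower one. These shares of 9.09%, 16.7% and 14.3% lay near the 11.5% of all protein-coding genes. In the authors' deposited table the values were 1.04 at Amer2, a membrane anchor of Apc, 1.59 at Daam2 and 1.25 at Prickle2, both linked to Dishevelled, and 1.83 at Dact2, a Dishevelled antagonist. Against Vav KO, Tie2 KO had 0.80 at Amer2, 1.06 at Daam2 and 1.29 at Dact2, and -1.72 upstream of Frat2, a Gsk3-binding protein gene, in the authors' deposited table. Apc2, the Apc homologue of nervous tissue, was lower in Vav KO than in Tie2 WT, at -1.61 in the authors' deposited table.

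In the nucleus, 3 of 12 coactivator genes were near a higher region in Vav KO against Tie2 WT, namely Bcl9 at 1.88, Jup, which encodes plakoglobin, at 1.38 and Crebbp at 0.82 in the authors' deposited table. That is 25.0% of them, against 5.29% of all protein-coding genes, while 1 of 12 was near a higher region in Tie2 KO against Tie2 WT, or 8.33% against 11.5%. In Tie2 KO against Vav KO, Bcl9l and Jup were lower at -1.91 and -1.0, and Pygo1 was higher at 0.62, its value also against Tie2 WT, in the authors' deposited table. These 2 and 1 of 12 are 16.7% and 8.33%, against 6.35% lower and 11.1% higher among all protein-coding genes. Of 18 repressor genes, 2 were near a higher and 1 was near a lower region in Tie2 KO against Tie2 WT (11.1% and 5.56%, against 11.5% and 2.51%), and 3 and 3 in Vav KO against Tie2 WT (16.7% each, against 5.29% and 2.59%). Among them Chd8, a chromatin remodeller that binds beta-catenin, had 2.98 in Vav KO against Tie2 WT and -2.12 in Tie2 KO against Vav KO in the authors' deposited table. These Chd8 values have the signs seen at Nkd2 and, like them, share the Vav KO samples. Tle2, a Groucho corepressor gene, was higher in both knockouts than in Tie2 WT, at 0.83 in Tie2 KO and 1.09 in Vav KO in the authors' deposited table. Tle6 was lower in both, at -0.81 in Tie2 KO and -0.64 in Vav KO in the authors' deposited table. The Tle2 regions lay 4986 bp and the Chd8 regions 4229 bp upstream of the gene start. None of the coactivator and repressor regions higher in Vav KO than in Tie2 WT covered a start. Upstream of Ctbp1 the Vav KO lists held regions of both signs, at 1.98, 1.73 and -1.58 in the authors' deposited table, and Tie2 KO had 1.53 against Tie2 WT and 1.31 against Vav KO. Hic1 was lower in Vav KO than in Tie2 WT, at -1.04, and Tie2 KO against Vav KO had 1.11 at Hic1, 1.00 at Sox17 and -1.36 at Ldb1 in the authors' deposited table.

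Likeness was measured as the Euclidean distance between log2 fold changes over the 2 comparisons in which a gene was called. Only genes called in the same comparisons and directions, and in no other, were compared. The region with the largest absolute change stood for each gene in each comparison. Closest to Lef1, taken at its upstream regions of 1.64 and 2.2, were Rgma, Fbxo39 and Gjb6. Rgma, at a distance of 0.0447, had 1.66 in Tie2 KO against Tie2 WT and 2.16 in Tie2 KO against Vav KO in the authors' deposited table. Closest to Ctnnbip1 were Ppfia4, Spag16 and Slc38a1, the first at a distance of 0.0316 with -1.07 in Tie2 KO and -1.24 in Vav KO against Tie2 WT in the authors' deposited table. Closest to Nkd2 were Osm, Tmem154 and Hcfc1r1, and Osm, at a distance of 0.01, had 1.54 in Vav KO against Tie2 WT and -1.21 in Tie2 KO against Vav KO in the authors' deposited table.

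Markers of other yolk sac cells were also near called regions. The shares of all protein-coding genes near higher and lower regions, against which these small counts stand, were 11.5% and 2.51% in Tie2 KO against Tie2 WT, 11.1% and 6.35% in Tie2 KO against Vav KO, and 5.29% and 2.59% in Vav KO against Tie2 WT. Of 10 mesothelium and mesenchyme markers, 7 had a higher and 0 had a lower region nearby in Tie2 KO against Tie2 WT, and 6 and 0 in Tie2 KO against Vav KO. Of 11 endothelial markers the counts were 4 and 2 in the first of these comparisons and 4 and 1 in the second. Among the 4 in each was Tek, where a region of 12899 bp had 2.90 in the first and one of 12299 bp had 2.92 in the second (log2 fold changes, the authors' deposited table). Tek regulatory sequence drives the Tie2-Cre transgene, and in both comparisons Tie2-CreTg/+ was the label of the Tie2 KO samples alone, so reads from the transgene and from the Tek gene cannot be told apart. Without Tek, left out after seeing the data, 3 of 10 endothelial markers were near a higher region in each. In Vav KO against Tie2 WT the counts were 2 and 1 for mesothelium and mesenchyme and 0 and 0 for endothelium. Of 10 visceral endoderm markers, 2 and 0 were near higher and lower regions in Tie2 KO against Tie2 WT, 4 and 0 in Tie2 KO against Vav KO and 0 and 1 in Vav KO against Tie2 WT. In the same order of comparisons, 9 megakaryocyte and mast cell markers gave 0 and 3, 2 and 2, and 0 and 3. The 8 primitive erythroid markers gave 1 and 0, 0 and 2, and 3 and 0, and the 8 macrophage markers gave 0 and 1, 2 and 1, and 1 and 0. The 14 markers of erythro-myeloid progenitors themselves gave 0 and 0, 1 and 1, and 1 and 2. The lists give differences and no levels, so whether the progenitor markers were open cannot be read from them. Most mesothelium and mesenchyme markers were thus called higher, with 0 lower, in the comparisons in which Lef1 and most target genes were. Of the visceral endoderm markers 0 were lower there, but only 2 of 10 were higher in Tie2 KO against Tie2 WT. Sox17, called higher in Tie2 KO against Vav KO, counts in both the endothelial and the visceral endoderm set. The part of these markers in the Lef1 and target gene calls was not tested.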

How the data were processed

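ATAC-seq of 14 mouse samples was processed by the submitters, whose processing notes name FastQC, Bowtie2, SAMtools 1.3.1, Picard, MACS2 2.1.2, HOMER 4.10 and the mm10 build, with no role for each. Tn5 offset correction, duplicate handling, library scaling and the test behind the calls were not given in the sources used here. Per the file headers, the 6 deposited lists give, for each region and gene, the authors' log2 fold change, their adjusted p-value and other measures, the width and the distance to the gene start in bp. Group abbreviations in the list names were taken to mean Tie2 KO, Vav KO and Tie2 WT. Each list holds called regions only, at or within 5 kb upstream of a gene start, which leaves distal elements and uncalled genes without a value. Depth per sample is unknown.

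From the 10679 lines, regions were taken by gene symbol, ranked within their list and counted with Python 3.11.15 and pandas 2.3.3. Of the lines, 10669 matched the RefSeq gene table (GRCm38.p6, the assembly that mm10 names) by gene identifier. The background is the share of its 21900 protein-coding genes near a region of the same list. No test was run, since the lists chose the genes. Sequence counting was tested on simulated data. Members, role lists and markers were chosen with earlier results of these data known. Named pathway genes are those with regions in 2 or more comparisons, and otherwise the 3 with the largest absolute log2 fold change per comparison and direction; for a gene with several regions the text gives the largest. A gene that the rule takes is not reported here. Alternatives were a stricter adjusted p, a larger fold change, regions over gene starts, matching by identifier, other summaries of several regions, another denominator, another overlap and a shorter motif.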

Additional observations from a re-analysis of the deposited data

Results flagged for a closer look

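Lef1 and Nkd2 are listed here because the authors called them as differing between Tie2 KO and Vav KO. At Lef1 the log2 fold change was 2.2 at the upstream region and 1.04 at the region over the gene start, with adjusted p-values of 1.11e-05 and 0.000738 in the authors' deposited table. At Nkd2 it was -1.22 (adjusted p 0.000481 in the authors' deposited table). These lists also chose the genes, so the values describe the calls and test nothing further. Vav WT is in no list, so a difference between the Cre lines and a difference in what loss of Ezh2 did cannot be told apart.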

How the results depend on the processing

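Alternative settings gave 62 recomputed values, of which 45 equalled the reported one or, for counts and shares, lay within 1.5 times of it, 17 had moved and 0 had turned direction. With an adjusted p of 0.01 or lower, an absolute log2 fold change of 1 or more, or matching by gene identifier, the number of the 10 genes near a region was unchanged in all 6 lists. With regions over the gene start alone, the count was 0 for lower regions of Tie2 KO against Tie2 WT, for higher and lower regions of Vav KO against Tie2 WT and for lower regions of Tie2 KO against Vav KO, since the Ctnnbip1 and Nkd2 regions lie upstream. For Lef1, the region nearest to the start gave a log2 fold change of 0.97 against Tie2 WT and 1.04 against Vav KO, and the mean over its regions gave 1.3 and 1.62. With all genes of the reference table as denominator, the background shares near higher and lower regions were 5.66% and 1.31% in Tie2 KO against Tie2 WT, 2.69% and 1.31% in Vav KO against Tie2 WT, and 5.51% and 3.21% in Tie2 KO against Vav KO, since that table has 49997 genes. At an absolute log2 fold change of 1 or more, 13 pathway genes had a higher and 0 had a lower region nearby in Tie2 KO against Tie2 WT. Leaving out replicates could not be run, because the lists hold no value per sample. No paired analysis was possible because the lists hold no value per sample and the result comes from no test.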

Other observations

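Next to the 10 genes, called regions of their neighbours had values of their own. Upstream of Clstn1, which follows Ctnnbip1 on chromosome 4 and encodes a calsyntenin of neurons, regions were higher in both knockouts than in Tie2 WT, with log2 fold changes of 1.13 in Tie2 KO and 1.29 in Vav KO in the authors' deposited table, while the region upstream of Ctnnbip1 was lower in both. These regions lay 18265 and 17665 bp beyond the Ctnnbip1 span. Upstream of Snx20, a sorting nexin gene that lies beyond Nkd1, the authors' deposited table gives 1.48 in Vav KO against Tie2 WT and -1.36 in Tie2 KO against Vav KO, the signs seen at Nkd2 on another chromosome. Upstream of Tgoln1, next to the 3′ end of Tcf7l1, Tie2 KO was lower than both Tie2 WT, at -0.69, and Vav KO, at -0.83, in the authors' deposited table.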
